A study of Mus musculus with 58 samples.

Results

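Imprinted genes are expressed mainly or only from the copy inherited from one parent, and 36 of them were followed here through the striatum of mice with a 16p11.2 hemi-deletion or with mutations in 3 genes of that region. The list was chosen from genes known to be imprinted in the mouse, around Ndn, which was picked because 3g del/+ males had less of its lysate RNA than their wt controls in this series. All 36 were among the 54532 genes of the RNA-seq tables. Of these, 29 were among the 18411 genes of the lysate RNA and ribosome footprint tables, where Meg3, Rian, Mirg, H19, Airn, Kcnq1ot1 and Phlda2 were not listed. By their usual description, 21 members are expressed from the paternal copy, 12 from the maternal copy, and 3 (Grb10, Ddc and Gnas) from either copy depending on the tissue or promoter.

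Imprinted genes lie in clusters, and each cluster has a control region that is methylated in the egg or the sperm and keeps that mark in the body's cells. Some clusters make a long noncoding RNA from one parental copy while protein-coding neighbours are expressed from the other. Many members act in growth, feeding and the differentiation of neurons, and in neurons some of them, such as Ube3a, are imprinted while in other cells they are not. The counts described here do not separate the 2 parental copies.

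The 3g line carries premature stop mutations in 1 copy each of Taok2, Sez6l2 and Mvp, made with CRISPR/Cas9 in the mouse counterpart of human 16p11.2. The 16p11.2 line lacks 1 copy of that whole region and was obtained from a commercial supplier. Within each line, del/+ mice were compared with wt mice, described by the study as young adult littermates, and the labels give strain B6129S and striatum, the input nucleus of the basal ganglia, for every library. RNA-seq was done on 32 libraries, 4 per sex of each genotype in each line. From the striatal lysate of other mice, all male, 13 lysate RNA libraries and 13 libraries of ribosome footprints (the stretches of mRNA that ribosomes protect from nuclease) were made, from 3 wt and 3 del/+ mice of the 3g line and from 4 wt and 3 del/+ mice of the 16p11.2 line. Libraries are named here by line, genotype, sex and the number in their label, and the mice of the lysates are numbered from 1 within line and genotype in the order of their labels.

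Levels are given as CPM, counts relative to library size after TMM normalization over all libraries of an assay. They are not divided by transcript length, so they are compared between libraries and not between genes. Total counts were between 11711099 and 65529807 in the RNA-seq libraries, between 15102576 and 19122488 in lysate RNA and between 342052 and 678130 in footprints. In 16p11.2 del/+ RNA-seq, Taok2 was lower than in wt by −0.98 (SE 0.09) in males and −1.06 (SE 0.06) in females on the log2 scale (edgeR adjusted p = 0.000989 and 8.29e-06). In 3g del/+ RNA-seq, Sez6l2 was lower by −0.57 (SE 0.08) in males and −0.49 (SE 0.04) in females (edgeR adjusted p = 0.807 and 0.00336), while Taok2 was at −0.02 in either sex. Mvp was at −0.37 (SE 0.14) in males and −0.48 (SE 0.06) in females (edgeR adjusted p = 0.974 and 0.0663). By most members called between the lines, 3g wt male 17 and 16p11.2 del/+ male 4 lay with the other line, and these 2 RNA-seq libraries are named where they touch a result. Taok2 was at 89.1 CPM in 16p11.2 del/+ male 4. Its group was at 83.2 to 94.9 CPM and 3g del/+ males were at 156 to 197 CPM. In the library labelled as female 1 of 16p11.2 del/+, Xist was at 0.462 CPM and the Y-linked Ddx3y at 38.5 CPM, against 326 to 916 and 0 CPM in the other 3 of its group. It was kept with its label, so all results below that use 16p11.2 del/+ females in RNA-seq include it.

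Ndn encodes necdin, a MAGE family protein of postmitotic neurons, and Magel2 a related protein of the same family. Both are single-exon genes of the paternally expressed cluster on mouse chromosome 7 that corresponds to the human Prader-Willi region, and 27050 bases lie between them. This cluster is 64.5 Mb from Taok2 at Ndn, and 14 of the 36 members lie on chromosome 7, the nearest being Inpp5f at 1.7 Mb. The 250 bases before the start of each gene are shown because the 2 genes are neighbours of the same expressed copy whose RNA-seq levels, unlike those of lysate RNA, went opposite ways between the wt mice of the lines. The sequences are from RefSeq on build GRCm38.p6, the + strand, 5′ to 3′, with CG, the dinucleotide that can be methylated, in capitals.
Ndn, chr7:62348027-62348276: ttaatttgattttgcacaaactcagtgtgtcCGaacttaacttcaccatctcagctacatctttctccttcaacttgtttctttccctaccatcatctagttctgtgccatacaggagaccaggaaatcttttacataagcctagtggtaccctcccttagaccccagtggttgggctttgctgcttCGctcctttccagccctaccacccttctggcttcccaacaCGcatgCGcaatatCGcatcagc
Magel2, chr7:62376729-62376978: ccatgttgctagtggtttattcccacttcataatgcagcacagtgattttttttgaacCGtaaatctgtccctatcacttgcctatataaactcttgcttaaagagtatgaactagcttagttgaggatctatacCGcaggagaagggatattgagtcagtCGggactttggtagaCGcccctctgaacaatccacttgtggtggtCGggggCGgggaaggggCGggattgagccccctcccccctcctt
The window before Ndn held 5 CG and 47.2% G or C, and 55.6% of 32851 RefSeq promoter windows of the same length held as many CG or more. The window before Magel2 held 7 CG and 48.8% G or C, and 46.3% of windows held as many or more. The deposited data hold no methylation values, so these letters are a description only.

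In lysate RNA of the 3g line, Ndn was at 37.2, 41.8 and 38.8 CPM in the 3 wt mice and at 19, 20.1 and 20.5 CPM in the 3 del/+ mice. The means were 39.2 ± 2.32 and 19.9 ± 0.807 (SD, n = 3 per genotype), and the groups did not overlap, as in 9.65% of all genes. The log2 fold change was −0.98 (SE 0.10). This contrast selected the gene, so these values are a description. In lysate RNA of the 16p11.2 line, Ndn was at 44.7, 32.9, 29.8 and 39.7 CPM in wt and at 34.8, 38.3 and 31.7 CPM in del/+ mice. These groups overlapped, and the log2 fold change was −0.07 (SE 0.14, edgeR adjusted p = 0.990). All 3 of the 3g del/+ values were thus below every other lysate RNA library of either line.

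The other assays of the same line gave Ndn differences that did not pass the test. Footprints of Ndn in the same 3g mice were at 105, 120 and 37.9 CPM in wt and 34.2, 54.1 and 67.0 CPM in del/+, from 112 and 104 counts in all. One wt mouse lay among the del/+ mice, and the log2 fold change was −0.74 (SE 0.35, edgeR adjusted p = 0.627). In RNA-seq of 3g females, Ndn was at 74.5, 70.9, 69.4 and 79.9 CPM in wt and at 76.0, 73.4, 70.5 and 71.8 CPM in del/+, a log2 fold change of −0.02 (SE 0.05, edgeR adjusted p = 0.919). In RNA-seq of 3g males it was at 206, 80.5, 69.6 and 83.9 CPM in wt, where the first value is male 17, and at 77.2, 70.1, 67.1 and 74.1 CPM in del/+. The log2 fold change in males was −0.59 (SE 0.30, edgeR adjusted p = 0.974), and without wt male 17 it was −0.12. The RNA-seq males and the lysate RNA males were different mice of the same line and genotype, and the difference between these 2 assays in the Ndn genotype effect was not tested.

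In the 16p11.2 line Ndn varied more among males than among females. In RNA-seq it was at 165, 170, 185 and 172 CPM in wt females and 166, 185, 164 and 161 CPM in del/+ females (log2 fold change −0.03, SE 0.07, edgeR adjusted p = 0.998). In males it was at 242, 198, 181 and 98.4 CPM in wt and at 168, 91.0, 163 and 143 CPM in del/+ (log2 fold change −0.34, SE 0.26, edgeR adjusted p = 0.761). Footprints of Ndn in this line were at 37.5, 71.5, 25.3 and 85.1 CPM in wt and 49.8, 27.9 and 56.1 CPM in del/+ (log2 fold change −0.32, SE 0.38, edgeR adjusted p = 0.962). In each of these pairs the del/+ values lay among or across the wt values.

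**Figure D1:**
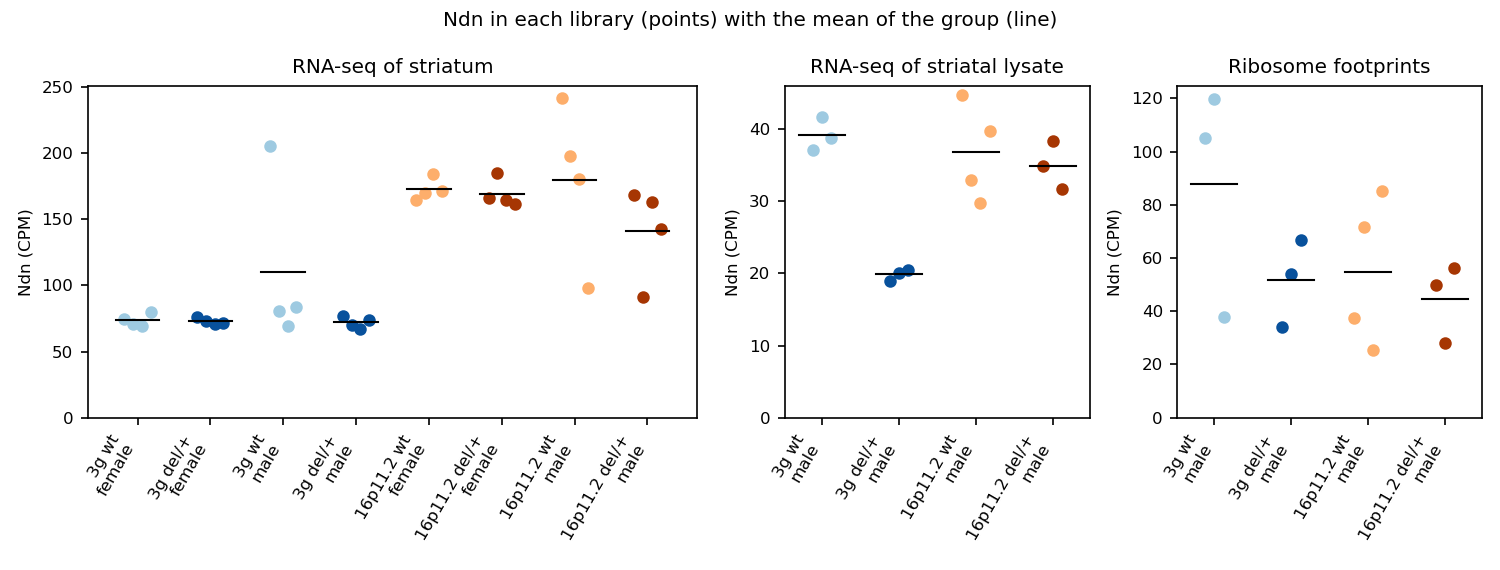
Ndn in CPM in every library, by line, genotype, sex and assay, with each point 1 library and lines at the group means. The 3 lysate RNA values of 3g del/+ males lie between 19 and 20.5, below the 3 of 3g wt males (37.2 to 41.8), and 3g wt male 17 is at 206 in RNA-seq among values of 69.6 to 83.9.

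Cell type markers in the 3g lysate RNA were compared with the fall in Ndn. The summed CPM of 8 hypothalamic genes, among them Avp, Oxt and Hcrt, were 3.79 to 6.83 in wt and 4.23 to 6.18 in del/+ mice. Those of 5 cortical excitatory neuron genes were 203 to 468 and 247 to 483, and those of 9 striatal projection neuron genes 1860 to 2242 and 1908 to 2432. In each of these 3 lists the groups overlapped. Sums of 7 leptomeningeal fibroblast genes did not overlap, at 11.5 to 13.2 in wt and 13.8 to 15.4 in del/+ mice, and their part in the Ndn values was not tested. In bulk tissue, fewer cells of a type and less RNA per cell cannot be told apart.

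The other genes of the Prader-Willi cluster did not move with Ndn in 3g lysate RNA. Magel2 was at 2.55, 4.25 and 2.79 CPM in 3g wt and at 2.82, 2.59 and 3.60 CPM in 3g del/+ mice, so the groups overlapped. Snrpn, whose protein is a core component of spliceosomal particles in neurons, was at 188, 186 and 174 CPM in wt and at 193, 262 and 230 CPM in del/+, without overlap, as in 9.65% of all genes. Its log2 fold change was +0.33 (SE 0.12, edgeR adjusted p = 0.940). Ube3a, the ubiquitin ligase that is maternally expressed in neurons, was at 275, 266 and 273 CPM in wt and at 294, 262 and 220 CPM in del/+. Snurf, which shares a transcript with Snrpn, had 0 counts in every RNA-seq and lysate RNA library, where the 3 counts that a count of 0 allows would be at most 0.239 and 0.219 CPM. In footprints Snurf had 23.8 to 98.1 CPM, so its reads in the other assays and those of Snrpn cannot be told apart.

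Across the members, no listed gene passed the adjusted test in a del/+ against wt comparison of RNA-seq, in either line or sex. In 3g males, 0 of 33 tested members were called by edgeR, where 0% of 19081 genes were called. At an unadjusted p under 0.05 there was 1 member (1.44% of all genes), and DESeq2 called 0 (0.00524% of all genes). That member was Igf2, the growth factor, at +0.79 (SE 0.28, edgeR adjusted p = 0.974) from levels under 2 CPM. In 16p11.2 males, edgeR called 0 of 33 (0.106% of all genes), 1 at an unadjusted p under 0.05 (5.82%), and DESeq2 called 0 (0.178% of genes). This was Zim1, a zinc finger gene beside Peg3, at +0.85 (SE 0.31, edgeR adjusted p = 0.742). The maternal noncoding RNA Meg3 was at 732, 1597, 1788 and 365 CPM in wt and at 1229, 1543, 1562 and 5245 CPM in del/+ males of this line, the last value being del/+ male 4 (+1.10, SE 0.55, edgeR adjusted p = 0.742). Without del/+ male 4 the log2 fold change of Meg3 was +0.37 (SE 0.45, edgeR adjusted p = 0.994). In 16p11.2 females, edgeR called 0 of 32 (0.144%), 1 at an unadjusted p under 0.05 (4.47%), and DESeq2 called 0 (0.271% of genes). This was Nnat, at +0.23 (SE 0.08, edgeR adjusted p = 0.987). The comparison includes del/+ female 1, with its male level of Ddx3y. Leaving out each library in turn gave +0.18 to +0.28 for Nnat.

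Of the del/+ against wt comparisons of RNA-seq, 3g females held the most members at an unadjusted p under 0.05. There edgeR called 0 of 33 members (0.00526% of 19024 genes), 6 at an unadjusted p under 0.05 (11% of all genes), and DESeq2 called 1 (0.615% of genes). Of the 33 members, 27.3% had a higher mean in del/+, against 49.5% of all genes, and the median log2 fold change was −0.06, against −0.00115 over all genes. Nnat, neuronatin, a small protein of the endoplasmic reticulum, was at 83.2, 73.9, 89.1 and 61.2 CPM in wt and 59.0, 50.3, 61.5 and 57.9 CPM in del/+ females. Only del/+ female 36, at 61.5, was above the lowest wt value, and the log2 fold change was −0.43 (SE 0.10, edgeR adjusted p = 0.227, DESeq2 adjusted p = 0.0135). Dlk1, a Notch-related protein that holds back differentiation, was at 35.7, 36.4, 34.6 and 22.6 CPM in wt and 16.9, 10.3, 23.9 and 20.6 CPM in del/+ (−0.86, SE 0.22, edgeR adjusted p = 0.243). Dio3, which inactivates thyroid hormone, was at 1.08, 0.814, 1.26 and 0.528 CPM in wt and 0.585, 0.304, 0.435 and 0.574 CPM in del/+ (−0.92, SE 0.31, edgeR adjusted p = 0.342). In Nnat, Dlk1 and Dio3 the lowest wt value was that of wt female 39.

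Magel2, Igf2 and Snrpn were the other 3 members with an unadjusted p under 0.05 in 3g females. Magel2 was at 5.13, 5.31, 5.54 and 2.99 CPM in wt and 2.86, 2.58, 3.56 and 4.02 CPM in del/+ (−0.53, SE 0.20, edgeR adjusted p = 0.375). Igf2 was at 0.757, 0.859, 0.875 and 0.675 CPM in wt and 0.647, 0.395, 0.633 and 0.470 CPM in del/+, without overlap, as in 5.52% of all genes (−0.57, SE 0.20, edgeR adjusted p = 0.354). Snrpn was at 271, 279, 267 and 309 CPM in wt and between 296 and 325 CPM in del/+ (+0.13, SE 0.05, edgeR adjusted p = 0.368). Wt female 39 had the lowest Magel2 and the highest Snrpn of its group, as the del/+ females had against the other 3 wt females.

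Marker sums also differed among these libraries of 3g females. The 5 cortical excitatory neuron genes summed to 157, 112, 150 and 556 CPM in wt and to 473, 624, 444 and 158 CPM in del/+, with wt female 39 at 556. Del/+ female 37, at 158, lay beside the lower wt sums. The 7 choroid plexus genes, among them Ttr and Folr1, summed to 32.2 to 36.2 CPM in wt and 16.8 to 28.2 CPM in del/+, without overlap. None of the markers of either list was at 0 throughout a group, and their part in the member values was not tested. Without wt female 39, edgeR called 3 of 33 members, Dlk1, Magel2 and Nnat, all lower in del/+, where it called 0.915% of 19125 genes. Without the filter on low counts but with all libraries it called 2, where it called 0.436% of 36207 genes.

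In the same direction and without overlap in both sexes, 0 members differed between del/+ and wt in the 3g line (0.139% of 18733 genes) and 0 in the 16p11.2 line (0.215% of 17667 genes). The genotype effect was also compared between sexes. In the 3g line, edgeR called 0 of 33 members for genotype by sex (0% of genes), 1 at an unadjusted p under 0.05 (2.69%), and DESeq2 called 0 (0% of genes). This was Igf2, with an interaction of +1.36 (SE 0.34, edgeR adjusted p = 0.901) as its del/+ to wt difference was +0.79 in males and −0.57 in females. In the 16p11.2 line edgeR called 0 (0% of genes), 2 at an unadjusted p under 0.05 (4.33%), and DESeq2 called 0 (0.0159% of genes). These were Nnat at −0.72 and Rian, a maternal noncoding RNA, at +0.59 (both edgeR adjusted p = 0.835). This fit counts del/+ female 1, with its male level of Ddx3y, as female. Leaving out each library in turn gave −0.91 to −0.54 for Nnat and +0.38 to +0.72 for Rian. The genotype effect was not called as different between the lines for any of 33 members (0.123% of genes by edgeR), with 0 at an unadjusted p under 0.05 (4.02% of genes) and 0 by DESeq2 (0.147% of genes). For Ndn that interaction was +0.15 (SE 0.25), and without 3g wt male 17 it was −0.13.

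In lysate RNA of the 3g line, the gene that chose the list was the 1 of 26 tested members called (0.0209% of 14378 genes). An unadjusted p under 0.05 was found for 6 members (4.92% of genes), DESeq2 called 1 (0.0904% of genes), and all these counts use the contrast that selected the gene. The 5 besides Ndn were Igf2 at +0.41 (SE 0.10, edgeR adjusted p = 0.730), Snrpn, Ddc at −0.64 (SE 0.27), Igf2r at −0.32 (SE 0.12) and Inpp5f at −0.25 (SE 0.10), the last 4 each with an edgeR adjusted p of 0.940. Ddc makes dopamine and serotonin from their precursors, Igf2r clears IGF2, and Inpp5f is a phosphoinositide phosphatase. Igf2 was at 108, 127 and 111 CPM in wt and at 147, 148 and 164 CPM in del/+, without overlap. In this comparison 6 of 26 members did not overlap, Ndn among them, where 9.65% of all genes did not. The leptomeningeal marker sums given above did not overlap either, and their part in the Igf2 values was not tested. In lysate RNA of the 16p11.2 line edgeR called 0 of 26 (0.133%), 2 at an unadjusted p under 0.05 (4.41%), and DESeq2 called 0 (0.216% of genes). These were Peg10, a gene derived from a retrotransposon, at +0.33 (SE 0.11) and Zim1 at +0.47 (SE 0.22), both with an edgeR adjusted p of 0.990.

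In footprints, 20 members passed the filter on low counts in the 3g line and 16 in the 16p11.2 line. In the 3g line edgeR called 0 (0.0132% of 7553 genes), 2 at an unadjusted p under 0.05 (7.97%), and DESeq2 called 0 (0.146% of genes). Ube3a footprints were at 76.6, 62.3 and 82.9 CPM in wt and at 114, 138 and 102 CPM in del/+, without overlap (+0.68, SE 0.24, edgeR adjusted p = 0.452). Dlk1 footprints were at 50.3, 69.2 and 49.7 CPM in wt and at 22.8, 29.6 and 44.1 CPM in del/+, without overlap (−0.79, SE 0.33, edgeR adjusted p = 0.543). Of the 20 members these 2 did not overlap, where 13.1% of all genes did not. In these footprints the sums of 4 septal or other basal forebrain neuron genes did not overlap either, at 47.3 to 108 CPM in wt and 39.9 to 41.1 CPM in del/+ mice, and their part in these values was not tested. In the 16p11.2 line edgeR called 0 (0.117% of genes), 2 at an unadjusted p under 0.05 (6.15%), and DESeq2 called 0 (0.252% of genes). Here Dlk1 footprints were at 15.6, 55.6, 25.3 and 18.2 CPM in wt and at 59.1, 43.4 and 72.7 CPM in del/+ (+1.02, SE 0.39, edgeR adjusted p = 0.667). Igf2r footprints were at 78.1, 42.4, 59.7 and 85.1 CPM in wt and at 34.2, 37.2 and 46.2 CPM in del/+ (−0.76, SE 0.33, edgeR adjusted p = 0.750). The Dlk1 difference thus had opposite signs in the lines, and its difference between them was not tested.

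**Figure D2:**
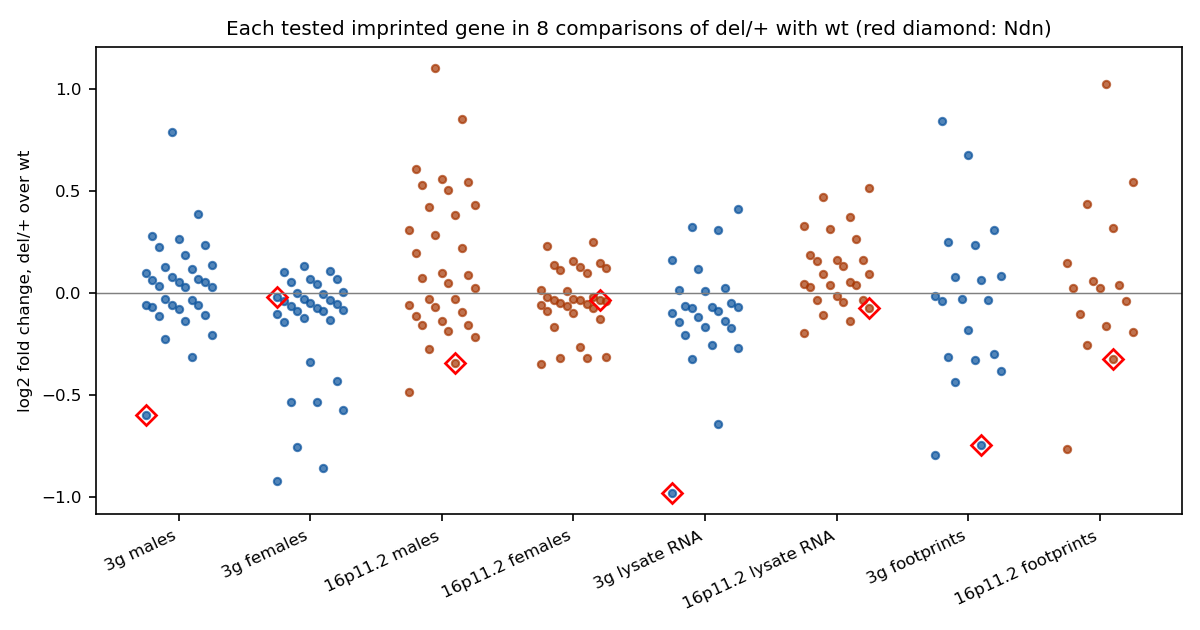
Log2 fold change of del/+ over wt in 8 comparisons by line, sex and assay, with each point 1 tested member and Ndn in red diamonds. Ndn in 3g lysate RNA, the contrast that selected the gene, is at −0.98, and Meg3 in 16p11.2 males is the highest point at +1.10, or +0.37 without del/+ male 4.

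Translational efficiency is the change in footprints relative to the change in lysate RNA of the same mice. Its fit held no block by mouse, so the SE and p-values here do not use that pairing. In the 3g line it was tested for 28 members. There edgeR called 0 (0% of 15137 genes), 2 at an unadjusted p under 0.05 (7.67%), and DESeq2 called 0 (0.106% of genes). Ube3a was at +0.78 (SE 0.27, edgeR adjusted p = 0.524) and Copg2, a subunit of the coat of transport vesicles, at +0.94 (SE 0.42, edgeR adjusted p = 0.620). In the 16p11.2 line edgeR called 0 of 29 (0.00664% of 15071 genes), 5 at an unadjusted p under 0.05 (6.24%), and DESeq2 called 0 (0.0265% of genes). Of these 5, Zim1, Ddc, Cdkn1c and Asb4 had footprint counts near 0, and no fold is given. Igf2r was at −0.75 (SE 0.35, edgeR adjusted p = 0.792). For Ndn in the 16p11.2 line the value was −0.35 (edgeR adjusted p = 0.937).

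The members differed widely in their ratio of footprint CPM to lysate RNA CPM in wt mice, which was ranked for 24 members with at least 10 footprint counts in each line. The lowest geometric mean ratios over the lines were those of Ube3a at 0.334, Impact at 0.460 and Usp29 at 0.614. The highest were those of Dio3 at 8.39, Igf2r at 3.76 and Magel2 at 2.85, against medians over all genes of 1.38 in the 3g line and 1.35 in the 16p11.2 line. The ratio of Ndn was 2.06, rank 19 of 24. Dio3 rested on 6 and 13 footprint counts and Magel2 on 8 and 13 in the wt mice of the 3g and 16p11.2 lines.

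For Ube3a the wt ratio was low in every mouse, at 0.234 to 0.303 in the 3g line and 0.353 to 0.525 in the 16p11.2 line, from 94 and 169 counts. Lysate RNA of Ube3a was at 260, 237, 248 and 258 CPM in 16p11.2 wt mice and footprints at 100, 125, 103 and 91.2 CPM. Impact, which restrains a kinase of the amino acid starvation response, had lysate RNA of 141, 131 and 130 CPM and footprints of 47.9, 106 and 54.4 CPM in 3g wt mice, and of 150, 128, 125 and 148 CPM and 62.5, 66.2, 62.0 and 79.1 CPM in 16p11.2 wt mice. Usp29, a deubiquitinase gene that starts beside Peg3, had lysate RNA of 37, 42 and 36.3 CPM and footprints of 14.4, 32.3 and 23.7 CPM in 3g wt mice. In 16p11.2 wt mice Usp29 was at 31.8, 34, 37 and 38.5 CPM in lysate RNA and at 21.9, 15.9, 36.8 and 12.2 CPM in footprints. Footprints of these 3 genes were lower than lysate RNA in all 7 wt mice.

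Igf2r, the receptor that carries IGF2 to the lysosome, went the other way in every wt mouse. Its lysate RNA was at 20.8, 24 and 25.2 CPM and its footprints at 93.4, 83.0 and 52.1 CPM in 3g wt mice, and in 16p11.2 wt mice lysate RNA was at 19.1, 13.8, 14.7 and 16.9 CPM. Magel2 footprints were at 9.58, 2.31 and 7.10 CPM in 3g wt and at 15.6, 7.95, 6.89 and 4.05 CPM in 16p11.2 wt mice, against lysate RNA of 2.25, 2.12, 2.62 and 2.21 CPM in the latter. Dio3 footprints were at 12, 0 and 2.37 CPM in 3g wt and at 3.13, 31.8, 0 and 0 CPM in 16p11.2 wt mice, against lysate RNA of at most 0.719 CPM. The Dio3 ratio thus rested on few mice and few counts.

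**Figure D3:**
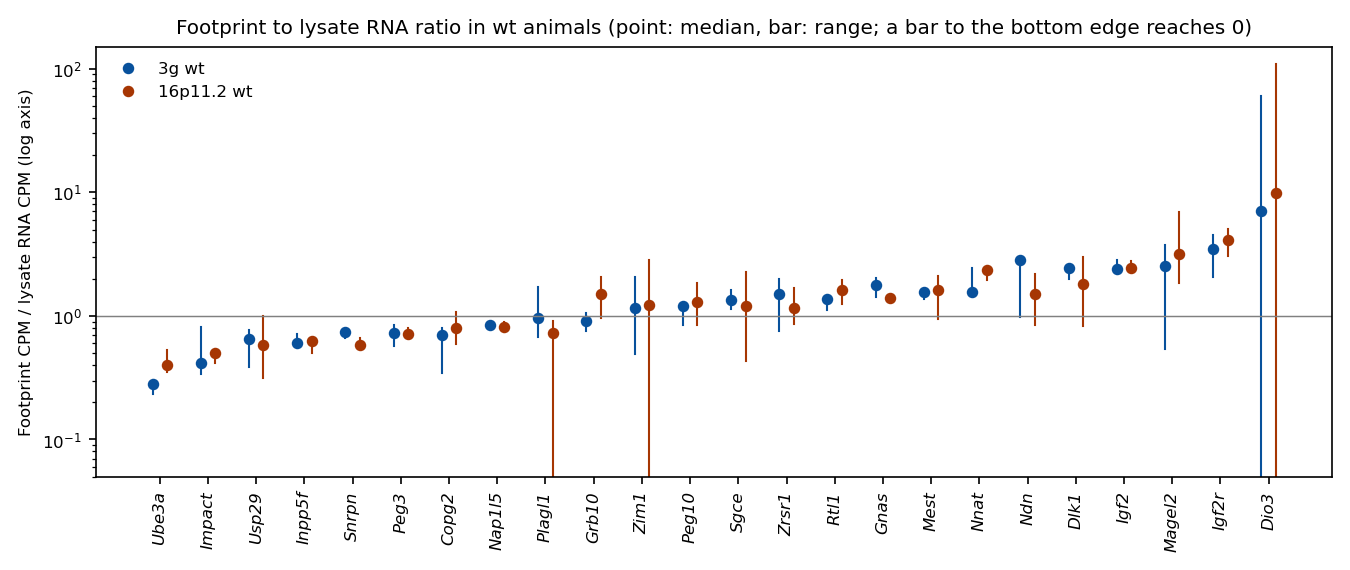
Ratio of footprint CPM to lysate RNA CPM for the 24 ranked members in wt mice of each line, on a log axis, with points at the median and bars over the range of the mice. Ube3a (geometric mean 0.334) and Impact (0.460) are at the low end and Igf2r (3.76) and Dio3 (8.39) at the high end, and a bar that reaches the lower edge ends at 0.

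Most calls among the members came from the comparison of wt mice of the 2 lines in RNA-seq. Of 33 tested members, edgeR called 27, 8 higher and 19 lower in the 16p11.2 line, and DESeq2 called 29 (63% of genes). The background was large, since 61.8% of 19739 genes were called (65.6% at an unadjusted p under 0.05, where there were 29 members), 30.6% higher and 31.2% lower in the 16p11.2 line. The median log2 fold change of the members was −0.55, against −0.00343 over all genes. Line, strain history, table and library preparation cannot be told apart in this comparison. Of the members, 4 had wt libraries of the lines that did not overlap (3.37% of all genes), Magel2 and Plagl1 lower and Snrpn and Copg2 higher in the 16p11.2 line. Without 3g wt male 17, which was left out after its values were seen, the count was 18, 4 higher and 14 lower (37.5% of all genes).

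Magel2 was at 1.81 to 7.28 CPM in the 8 wt libraries of the 3g line, with a median of 5.12, and at 0.594 to 1.67 CPM in those of the 16p11.2 line, with a median of 0.906. The lowest 3g value was that of male 17, and the log2 difference was −2.22 (SE 0.26, edgeR adjusted p = 4.83e-05). Ndn went the other way, at 69.4 to 206 CPM (median 77.2) in 3g wt and 98.4 to 242 CPM (median 176) in 16p11.2 wt libraries (+0.96, SE 0.21, edgeR adjusted p = 0.000792), with male 17 again among the 16p11.2 values. Snrpn was at 253 to 422 CPM (median 273) in 3g wt and at 423 to 507 CPM (median 456) in 16p11.2 wt libraries (+0.65, SE 0.09, edgeR adjusted p = 5.17e-05), and without male 17 the highest 3g wt value was 309. Ube3a was at 63.9 to 89.3 CPM in 3g wt and 45.7 to 77.0 CPM in 16p11.2 wt libraries (−0.54, SE 0.10, edgeR adjusted p = 0.000259). The 4 tested genes of this cluster were thus split, 2 higher and 2 lower.

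Plagl1, a zinc finger transcription factor that regulates other imprinted genes, was at 14.2 to 20.7 CPM (median 18.7) in 3g wt and at 8.76 to 13 CPM (median 10.6) in 16p11.2 wt libraries (−0.77, SE 0.09, edgeR adjusted p = 4.83e-05). Copg2 was at 79.8 to 88.5 CPM (median 81.1) in 3g wt and at 90.4 to 111 CPM (median 96.1) in 16p11.2 wt libraries (+0.22, SE 0.04, edgeR adjusted p = 0.000349). The 3′ end of Copg2 overlaps Mest, a paternally expressed gene of the hydrolase family, so reads there may belong to either. Mest itself was at +0.10 (SE 0.05, edgeR adjusted p = 0.0606).

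All 6 genes of the Dlk1-Dio3 cluster on chromosome 12 were lower in the 16p11.2 line. Its maternal noncoding RNAs, which host many small RNAs, were at −2 (SE 0.30, edgeR adjusted p = 7.40e-05) for Meg3, −1.49 (SE 0.22) for Mirg and −0.87 (SE 0.13) for Rian. Meg3 was at 1431 to 5887 CPM (median 5399) in 3g wt and at 365 to 1788 CPM (median 1416) in 16p11.2 wt libraries. The 1431 CPM was male 17, and the other 3g wt libraries were at 5001 CPM or more. Outside the wt libraries, 16p11.2 del/+ male 4 was at 5245 CPM of Meg3, while the other 16p11.2 del/+ libraries were at 606 to 1934 CPM. The paternal genes of the cluster were at −1.88 (SE 0.26) for Dlk1, −1.55 (SE 0.22) for Rtl1, derived from a retrotransposon, and −0.89 (SE 0.21) for Dio3. Rtl1 overlaps the end of Meg3 and the start of Rian on the other strand, and without the strand setting of the counting, reads of these genes cannot be told apart.

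The other clusters were mixed. In the Peg3 cluster on chromosome 7, all 3 genes were lower in the 16p11.2 line, at −1.20 (SE 0.17) for Zim1, −0.68 (SE 0.10) for Peg3, a zinc finger protein active in maternal care, and −0.42 (SE 0.09) for Usp29. In the Peg10 cluster on chromosome 6, Calcr, the calcitonin receptor, was at −2.54 (SE 0.37) and Peg10 at −1.11 (SE 0.18), while Sgce, epsilon-sarcoglycan of the cell membrane, was at +0.19 (SE 0.07). Asb4, an adaptor of ubiquitin ligases, was not called at −0.61 (SE 0.36, edgeR adjusted p = 0.15). On chromosome 17, Igf2r was at −0.59 (SE 0.10) and Airn, the paternal antisense RNA that overlaps it, at −0.45 (SE 0.18). Grb10, an adaptor that restrains insulin signalling, was at −0.55 (SE 0.08), and its neighbour Ddc was not called at −0.17 (SE 0.08).

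On the distal part of chromosome 7, Kcnq1ot1, a paternal noncoding RNA, was at −0.86 (SE 0.23), Igf2 at −0.82 (SE 0.27) and Cdkn1c, an inhibitor of the cell cycle, at +0.40 (SE 0.14). H19 and Phlda2 did not pass the filter on low counts, with at most 0.415 CPM for H19. Of the members outside clusters, Inpp5f was at +0.27 (SE 0.10) and Zrsr1, a splicing factor gene, at +0.12 (SE 0.05). Gnas, the stimulatory G protein subunit, was at +0.43 (SE 0.08). Nnat at −0.14 (SE 0.12), Nap1l5, a nucleosome assembly gene, at −0.10 (SE 0.07) and Impact at +0.02 (SE 0.04) were not called.

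**Figure D4:**
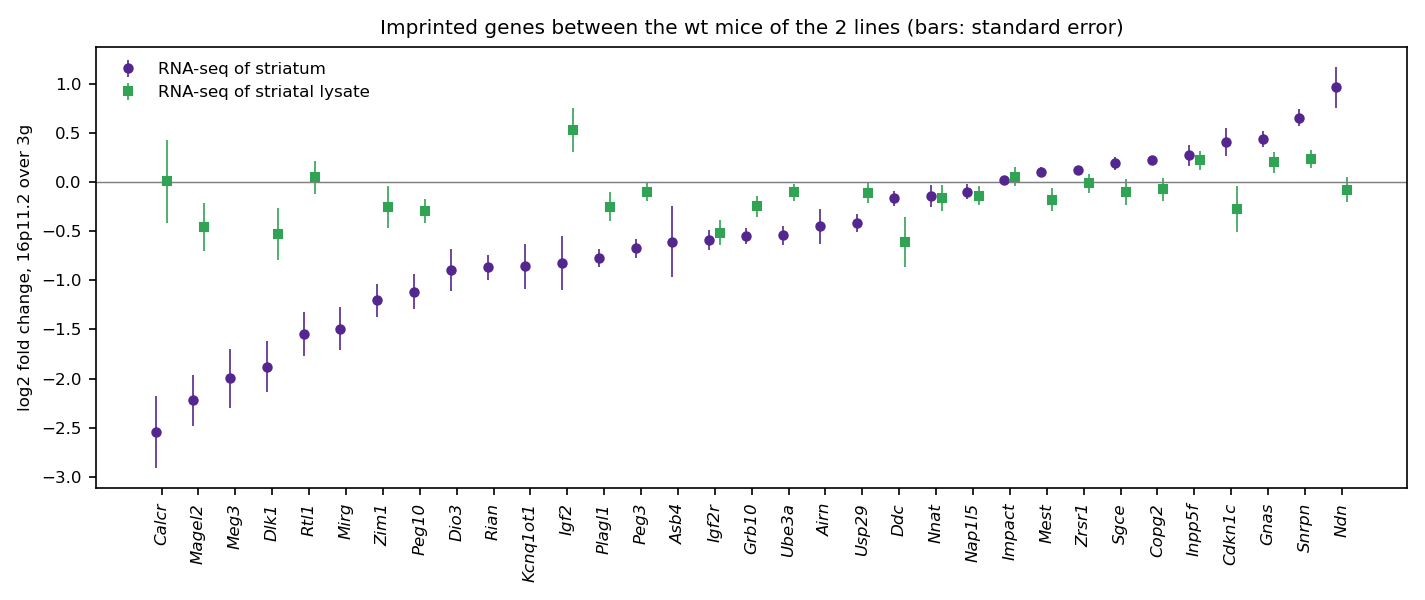
Log2 fold change of wt mice of the 16p11.2 line over wt mice of the 3g line for each tested member, in RNA-seq of striatum and in lysate RNA, with bars of 1 SE. In RNA-seq the values run from −2.54 (Calcr) to +0.96 (Ndn). The lysate RNA values of the members called in RNA-seq lie nearer to 0, which picking members by their RNA-seq call favours.

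The wt mice of the lines were also compared in lysate RNA, from other mice. There edgeR called 0 of 26 members (0.0139% of 14417 genes), 7 at an unadjusted p under 0.05 (10.8%), and DESeq2 called 1 (1.12% of genes). That was Igf2r, at −0.52 (SE 0.13, edgeR adjusted p = 0.212, DESeq2 adjusted p = 0.0350), lower in all 4 of the 16p11.2 wt mice than in the 3 of the 3g line. Of the 27 members called in RNA-seq, 21 were tested in lysate RNA, 13 of them with the same sign, and all 21 with a smaller absolute difference. These 21 were picked by their RNA-seq call, which favours smaller values in another assay, so these counts are a description only. Magel2 was at −0.46 (SE 0.25, edgeR adjusted p = 0.538), Dlk1 at −0.53 (SE 0.26), Snrpn at +0.23 (SE 0.09), and Ndn at −0.08 (SE 0.13, edgeR adjusted p = 0.872). In footprints edgeR called 0 of 20 (0.241% of 6633 genes), 1 at an unadjusted p under 0.05 (10.5%), and DESeq2 called 0 (0.95% of genes). That member was Dlk1, at −0.98 (SE 0.39, edgeR adjusted p = 0.370), and of 15 members tested in both, 6 had the same sign as in RNA-seq. The difference between assays was not tested, and the shares over all genes called in RNA-seq were not computed for these counts.

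Sums of some marker lists differed between the wt lines in RNA-seq, and those of most lists overlapped. The 5 cortical excitatory neuron genes summed to 34.2 to 556 CPM in the 3g wt libraries other than male 17, to 893 CPM in male 17, and to 740 to 1304 CPM in the 16p11.2 wt libraries. The 4 oligodendrocyte genes summed to 3655 to 6544 CPM, 10013 CPM and 7807 to 12265 CPM in the same order. The 4 endothelial genes summed to 142 to 165 CPM in the 3g wt libraries other than male 17, to 97.6 CPM in male 17, and to 81.4 to 114 CPM in 7 of the 16p11.2 wt libraries, with 183 CPM in wt male 4. Sums of the 9 striatal projection neuron genes, which mark the labelled tissue, overlapped at 6410 to 8399 and 5803 to 7963 CPM, as did those of the 8 hypothalamic genes at 4.91 to 6.79 and 4.88 to 6.80 CPM. Those of the septal, midbrain dopamine, choroid plexus, leptomeningeal, astrocyte and microglia genes overlapped as well, with and without male 17. In lysate RNA the cortical sums were 203 to 468 CPM in 3g wt and 192 to 557 CPM in 16p11.2 wt mice. Their part in the line difference was not tested. By the 27 called members, male 17 lay nearer to the 16p11.2 median in 24, and 16p11.2 del/+ male 4 in 7, where the other 15 libraries of each line did so in 0 to 6 (3g) and in 19 to 27 (16p11.2).

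Within a line, members of a cluster varied together across libraries to different extents. Pearson and Spearman coefficients of log2(CPM + 0.1) were computed within clusters over 15 libraries a line, both sexes and genotypes together, without male 17 and 16p11.2 del/+ male 4, for 68 relations. Of these, 20 passed a Benjamini-Hochberg adjusted permutation p of 0.05 by Pearson's r, 11 in the 3g line and 9 in the 16p11.2 line, and 15 did so by both coefficients. In the 16p11.2 line Meg3 and Mirg had r = 0.96 and rho = 0.88 (permutation p = 1e-05, the smallest that 100000 resamples give, adjusted p = 0.00034), and r = 0.91 without the 2 libraries farthest from the Meg3 median. Within sex r was 0.97 in the 7 males and 0.97 in the 8 females by label, del/+ female 1 among them. Meg3 and Rian had r = 0.93 and rho = 0.71 (adjusted permutation p = 0.00034), and r = 0.83 without those 2. Meg3 and Dlk1, a paternal gene of the cluster, had r = 0.03 and rho = −0.11. With the paternal Rtl1, Meg3 had r = 0.89 and rho = 0.86 (adjusted permutation p = 0.00051 for r). Rtl1 overlaps Meg3, so reads of that pair cannot be told apart. With the paternal Dio3, Meg3 had r = −0.38 and rho = −0.50. In the 3g line the r of Meg3 was 0.61 with Mirg and 0.54 with Rian (adjusted permutation p = 0.0560 and 0.0929). Without the 2 libraries farthest from the Meg3 median these were 0.40 and 0.31.

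In the 3g line, Dlk1 and Dio3 had r = 0.84 and rho = 0.86 (adjusted permutation p = 0.000874 for r), and r = 0.81 without the 2 libraries farthest from the Dlk1 median. In the 16p11.2 line that pair had r = 0.63, and r = 0.28 without the 2, so there the relation rested on those libraries. Peg10 and Calcr had r = 0.90 and rho = 0.91 in the 3g line (adjusted permutation p = 0.000453 for r) and r = 0.66 and rho = 0.78 in the 16p11.2 line. Magel2 and Snrpn had r = −0.86 and rho = −0.85 in the 3g line (adjusted permutation p = 0.00068 for r, and r = −0.84 without 2 libraries), while in the 16p11.2 line r was 0.31. Ndn and Magel2 had r = −0.00338 in the 3g line and −0.36 there without 2 libraries. This r was −0.38 in the 16p11.2 line, where it was 0.81 without 2 libraries, so each coefficient moved with 2 libraries. The differences between lines in r were not tested. The median r of pairs within a cluster was 0.52 over 34 pairs in the 3g line, against 0.19 over the 494 other pairs of members, and it was 0.15 against 0.10 in the 16p11.2 line. The other pairs include those with members outside clusters.

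**Figure D5:**
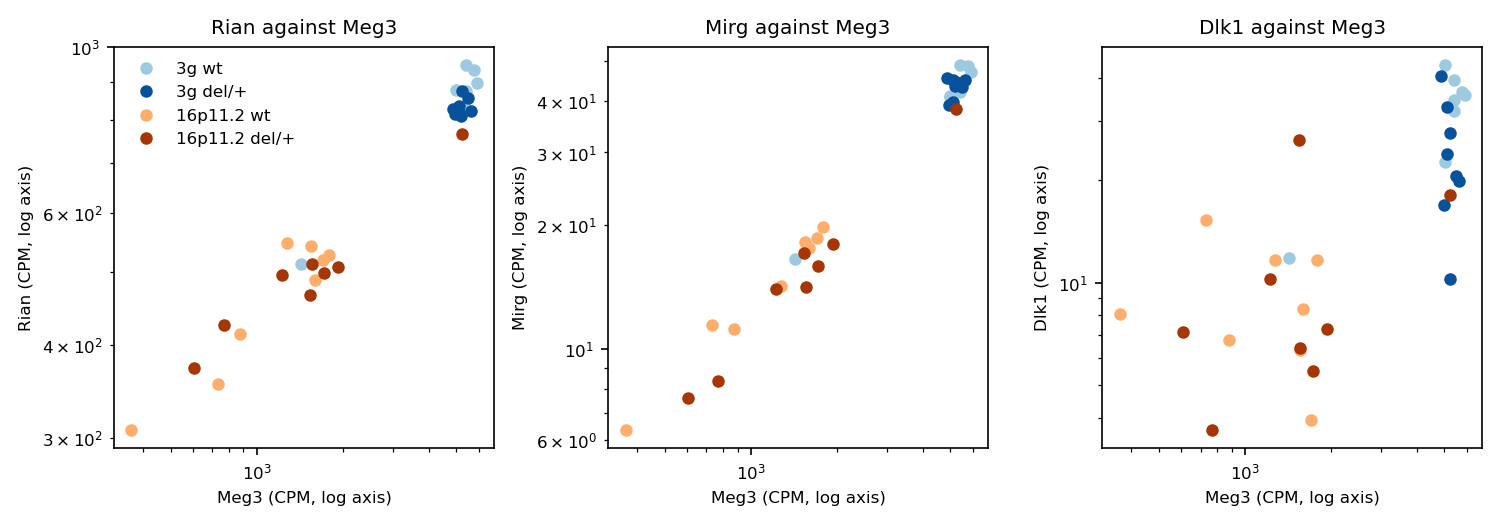
CPM of Rian, Mirg and Dlk1 against CPM of Meg3 in the 32 RNA-seq libraries, on log axes, coloured by line and genotype. Meg3 is at 5001 CPM or more in the 3g wt libraries except male 17 (1431), 16p11.2 del/+ male 4 (5245) lies among the 3g libraries, and in the 16p11.2 line Rian and Mirg follow Meg3 while Dlk1 does not (r = 0.93, 0.96 and 0.03). In the 3g line these r are 0.54, 0.61 and 0.10, and none passes the adjusted permutation test.

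A pair of further lists gave the setting of these members. Of 31 other imprinted genes, 25 were tested in RNA-seq, and edgeR called 0 in each del/+ against wt comparison (0% to 0.144% of all genes). At an unadjusted p under 0.05 there were 1 to 4, where 1.44% to 11% of all genes were found. Between wt lines 6 were higher and 6 lower in the 16p11.2 line (48% of those tested, where 61.8% of all genes were called), among them Commd1 at +0.63 (SE 0.10) and Atp10a at −0.82 (SE 0.16). Of 15 genes that set or keep imprints, 14 were tested, with 0 called in each del/+ against wt comparison of RNA-seq. There were 0 to 1 at an unadjusted p under 0.05 (the same 1.44% to 11% of all genes). Between wt lines 1 was higher and 8 lower (64.3%, near the 61.8% of all genes). Zfp57, a zinc finger protein that protects methylated imprints, was at −1.01 (SE 0.18, edgeR adjusted p = 0.000212), Dnmt1, the maintenance methyltransferase, at −0.38 (SE 0.07), and Mbd3 at +0.59 (SE 0.10). In lysate RNA of wt lines, edgeR called 0 genes of either list (0.0139% of all genes). At an unadjusted p under 0.05 there were 2 of 22 other imprinted genes and 3 of 13 imprint regulators (10.8% of all genes).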

How the data were processed

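RNA was measured in mouse striatum as counts per gene. The deposited counts of the RNA-seq libraries were made by the authors with the bcbio-nextgen pipeline, and the submitters' processing notes name HTSeq and build mm10. For the lysate RNA and footprint counts these notes name Bowtie2 and build mm39, and the counter, the filters and the strand setting are not given in the sources used here. The authors normalized none of these counts. The labels give polyA RNA as the molecule and a ribosomal RNA depletion kit for RNA-seq, and these were not reconciled here. Footprints are the shallowest assay. Each library was taken as 1 mouse, as the study's methods describe the RNA-seq samples. The labels number the lysates without saying that each is 1 mouse, and if they are not, those p-values measure a spread that may be technical.

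Groups were taken from the labels. Genes with low counts were removed with filterByExpr, libraries were normalized with TMM, and each comparison was fitted with the quasi-likelihood test of edgeR 4.0.16 (limma 3.58.1, R 4.3.3) over all genes of its table. Calls were made where the Benjamini-Hochberg adjusted p was under 0.05. CPM were computed from the counts over all libraries of an assay. Translational efficiency is the interaction of assay and genotype, fitted without a block by mouse. DESeq2 1.42.0, RLE size factors, no filter on low counts, leaving out each library, and a block by number were the alternatives, and 1 alternative, the overlap of wt lines without 3g wt male 17, was chosen after seeing the data. The scripts were tested on simulated counts with known changes. Correlations used log2(CPM + 0.1) and 100000 permutations.

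The members, the gene lists and the tests were chosen with earlier results of these data known. All members were named with a level or a place in a count. Values by library, or by range for groups over 5, were given for Ndn, for members called between wt lines without overlap, and for the 3 highest and 3 lowest ratios. Other members with values were those with an unadjusted p under 0.05. Marker lists were fixed for the cell types named, and those of septal, midbrain dopamine, endothelial, astrocyte and microglia genes had sums in 3g lysate RNA that overlapped between wt and del/+. Of all lists and del/+ against wt comparisons, sums did not overlap in 3, which are given beside the results. Positions and promoter windows are from RefSeq tables on GRCm38.p6. Footprint and lysate RNA libraries with the same number came from the same lysate, per the labels, and their deviations correlated at 0.0760 to 0.300. In the 16p11.2 RNA-seq the same numbers correlated at −0.251 to 0.110, so they do not pair samples.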

Additional observations from a re-analysis of the deposited data

Results flagged for a closer look

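Among the 10 members described by library, 100 groups of 4 libraries were examined, and in 8 of them 1 library stood far from the other 3 by its gap relative to the group's range. Chance alone gives about 1 in 20 such groups. Several of these values come from the same library. In 3g wt males, male 17 had 206 CPM of Ndn, where the others had 69.6 to 83.9, and 422 CPM of Snrpn, where the others had 253 to 275. In 3g wt females, female 39 had 2.99 CPM of Magel2, where the others had 5.13 to 5.54, and 31.5 CPM of Usp29, where the others had 37.7 to 37.9. In 3g del/+ females, female 36 had 88.7 CPM of Ube3a, where the others had 76.9 to 77.7. In 16p11.2 del/+ males, male 4 had 58.2 CPM of Igf2r, where the others had 34 to 37.6. In 16p11.2 wt mice, mouse 2 had 31.8 CPM of Dio3 footprints, where the others had 0 to 3.13, and 9.51 CPM of Plagl1 lysate RNA, where the others had 12.6 to 13.1.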

How the results depend on the processing

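The count of called members was the most open to processing in 3g females, where it was 0 in the fit as described, 2 without the filter on low counts (Dlk1 and Nnat, where 0.436% of all genes were called), 1 with DESeq2 (Nnat, 0.615% of all genes) and between 0 and 3 when 1 library was left out, with 3 without wt female 39 (0.915% of all genes). In wt lysate RNA between lines DESeq2 called 1 member (Igf2r, with 1.12% of all genes) where edgeR called 0. Between the wt lines in RNA-seq, leaving out 1 library gave 23 to 29 called members. The count of 1 in 3g lysate RNA stayed at 1 when any library was left out, and all other counts stayed at 0. In the fit as described that 1 member was Ndn, which this contrast selected, so the unchanged count is a description only. In wt lines RNA-seq without the filter, Sgce, Airn and Zrsr1 had edgeR adjusted p of 0.0558, 0.0770 and 0.141. RLE size factors moved no member across the threshold.

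Several log2 values of Ndn, not all of them near 0, changed sign when a library was left out. Among them, 3g translational efficiency uses the lysate RNA contrast that selected Ndn, so its range is a description. Leaving out each library in turn gave −0.042 to +0.025 in 3g females (highest without wt female 39), −0.072 to +0.00241 in 16p11.2 females (highest without wt female 3), −0.16 to +0.038 in 16p11.2 lysate RNA (highest without wt mouse 1) and −0.57 to +0.00113 in 16p11.2 footprints (highest without wt mouse 4). It gave −0.083 to +0.57 for 3g translational efficiency (lowest without the footprints of wt mouse 3), −0.55 to +0.047 for 16p11.2 translational efficiency (highest without the footprints of wt mouse 4) and −0.19 to +0.00874 between wt lines in lysate RNA (highest without 16p11.2 wt mouse 3). For genotype by line it gave −0.13 (without 3g wt male 17) to +0.24, and the value was −0.11 without both libraries that lay with the other line. The cause was not tested.

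With a block by replicate number, 0 members were called in 16p11.2 males and females and for translational efficiency in both lines, as without the block. In the 16p11.2 RNA-seq the numbers do not pair the samples, and in the footprint and lysate RNA libraries 12 of 13 mice matched their own number best. Depth limits the footprints, where 9 of the 29 listed members did not pass the filter in the 3g line.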

Other observations

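Levels of some members differed between the tables of the 2 RNA assays. Igf2 was at most 1.29 CPM in RNA-seq and at 94.8 to 220 CPM in lysate RNA. Gnas was at 11.9 to 25.3 CPM in RNA-seq and at 252 to 351 CPM in lysate RNA. Ube3a was at 45.7 to 95.7 CPM and at 220 to 297 CPM. The assays were counted with different pipelines and genome builds, from different mice, and these cannot be told apart. Differences between groups were therefore taken within an assay only.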
